A study of Rattus norvegicus with 17 samples.

Results

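The immediate early genes of neural activity were followed as 8 named rows of the deposited count table, out of 32494 genes. They were chosen by name, as the classic first transcripts of a neural stimulus, with earlier results of these data known: Fos (ENSRNOG00000008015), Fosb (ENSRNOG00000046667), Jun (ENSRNOG00000026293), Junb (ENSRNOG00000042838), Egr1 (ENSRNOG00000019422), Egr2 (ENSRNOG00000000640), Nr4a1 (ENSRNOG00000007607) and Arc (ENSRNOG00000043465). All 8 passed the filter on low counts that left 15460 genes. The table covers 17 young adult female Sprague-Dawley rats, which had a thoracic contusion or, in the intact groups, a sham injury (a laminectomy alone in some controls, as far as the methods state) and, 3 days later, an electrode placed in the nucleus raphe magnus (NRM), a serotonergic nucleus of the lower brainstem, under isoflurane. Group A (4 rats) had neither contusion nor stimulation, group B (3 rats) had a moderate spinal cord injury (SCI) without stimulation, group C (3 rats) had SCI and 2 h of NRM stimulation, group D (2 rats) had SCI, stimulation and pimozide at 1 mg/kg, and group E (5 rats) had stimulation without SCI. Pimozide, which blocks serotonin 5-HT7 and dopamine D2 receptors, was given before stimulation. The treatment labels of the group E rats call them unstimulated, whereas the letter in their titles, the series' design text and the study's methods make them stimulated, and the title letters were followed. If the treatment labels were the correct ones, every contrast with group E would carry a different meaning. The cord was taken as soon as stimulation ended, and cervical, thoracic and lumbar blocks were combined into 1 library per rat, so that a value is an average of the injured segments and of segments far from them. In such bulk RNA, fewer cells of a type and less RNA per cell cannot be told apart. Contrasts carry the study's names: ±SCI(0) is B against A, ±st(SCI) C against B, ±pim(st/SCI) D against C, ±st(0) E against A, ±st/SCI(0) C against A and ±SCI(st) C against E.

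Immediate early genes are transcribed within minutes of a stimulus, because the proteins that activate them are already present and need only be phosphorylated. In neurons, calcium entry and cAMP reach them through kinases that act on serum response factor, which binds the CArG box, and on CREB, which binds the cAMP response element. Fos, Fosb, Jun and Junb encode subunits of the AP-1 dimer, Egr1 and Egr2 encode zinc-finger transcription factors, Nr4a1 encodes an orphan nuclear receptor, and Arc encodes a protein that acts at the synapse itself. Fos, Junb and Egr1 are not restricted to neurons, since glia, endothelium and leukocytes also switch them on after injury or with inflammation.

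Promoters were searched for the elements named above and for sites of the AP-1 and Egr factors themselves. The table of RefSeq promoters on the GRCr8 build held 5 of the 8 genes (Egr1, Egr2, Nr4a1, Junb and Fosb). Each entry covers 250 bases before and 50 bases after a start site. The motifs searched, on both strands, were the CArG box, TGACGTCA (the full cAMP response element), TGACG (its core, which TGACGTCA contains), TGANTCA (the AP-1 site), GCGNGGGCG (the site of Egr factors) and TATAAA. The 160 bases before the start site are given 5′ to 3′ on the gene's strand for 1 gene each of the Egr, Nr4a and AP-1 families, with capitals on matches to all motifs but TATAAA. They lie at chr18:26736918-26737077 on the plus strand for Egr1, chr7:134259978-134260137 on the plus strand for Nr4a1 and chr19:40080966-40081125 on the plus strand for Junb.
Egr1: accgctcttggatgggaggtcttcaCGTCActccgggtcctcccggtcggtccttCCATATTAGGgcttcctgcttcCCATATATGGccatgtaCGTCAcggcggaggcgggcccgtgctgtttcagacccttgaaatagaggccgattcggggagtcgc
Nr4a1: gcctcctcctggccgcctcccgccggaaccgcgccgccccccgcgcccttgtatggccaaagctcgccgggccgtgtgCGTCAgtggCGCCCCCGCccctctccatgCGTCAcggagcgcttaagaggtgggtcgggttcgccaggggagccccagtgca
Junb: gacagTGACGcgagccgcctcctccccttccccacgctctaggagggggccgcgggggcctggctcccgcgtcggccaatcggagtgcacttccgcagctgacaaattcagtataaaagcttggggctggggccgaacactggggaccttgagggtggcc
Egr1 held CArG boxes starting at -105 and -83 and TGACG matches starting at -135 and -66, counted back from the base just before the start site. Nr4a1 held no CArG box in the window but 4 TGACG matches, of which those at -82 and -53 are in the stretch shown, and 1 Egr site at -73. Junb held 1 TGACG match at -155 and TATAAA at -49. In Egr2, whose entry starts inside the span of the gene because another transcript begins further upstream, the CArG box and the TGACG match stood at the same distances from the start site as in Egr1. The 22 bases from -83 to -62 are set side by side for these 2 genes, at chr18:26736995-26737016 (plus strand) and chr20:21054503-21054524 (minus strand), and 18 of the 22 were identical.
Egr1: CCATATATGGccatgtaCGTCA
Egr2: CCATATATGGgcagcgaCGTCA
Across 33469 promoters of the same length, 1.64% held a CArG box, 21.2% TGACG, 4.98% GCGNGGGCG and 14.2% TATAAA, against 2, 4, 1 and 2 of the 5 genes. TGACGTCA (1.83% of all promoters) and TGANTCA (7.33%) were in none of the 5 windows. The Fosb window, which also starts inside the span of its gene, held TATAAA alone of the 6, on the opposite strand and starting at -180. A match describes letters and was not measured as a bound site.

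Libraries held 9852873 to 14137717 counts on genes, and levels are given as CPM, the share of a library's counts scaled with TMM factors of 0.966 to 1.05. Between rats of a group the variance of counts was 4.39 to 40.5 times that of counting error (as a chi-square divided by its degrees of freedom). No pair within a group was thus a single library counted again, although this does not show that libraries came from different animals. For each contrast, p came from the quasi-likelihood F-test of edgeR and was adjusted over the 15460 genes by the Benjamini-Hochberg method. A gene was called at an adjusted p under 0.05 with an absolute log2(FC) above 1. Values after ± are SD for levels and SE for log2(FC). The 6 contrasts of the study share groups with each other, so that their values are given side by side and are not independent. Identifiers of other genes could be paired with symbols for few genes: 6 lists of other activity genes, upstream kinases and factors, serotonin receptors, heat shock and hypoxia genes, and the marker lists of neurons, glia, endothelium, meninges, muscle and nerve, matched 0 genes, so the pathway around the 8 genes and the tissue's own markers could not be checked. Markers of neutrophils (6 of 6 genes), red cells (6 of 6) and platelets (2 of 4) were matched and are given beside the results that they move with.

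Fos, Junb and Egr1 were called as higher with injury in stimulated rats [±SCI(st)], and Jun passed the adjusted p there but not the fold limit. Egr1 did not pass against the rats of group A (sham injury, no stimulation), with or without stimulation of the injured rats. Fos, the AP-1 subunit that is widely used as a marker of neuronal activation, also passed in injured and stimulated rats against those of group A [±st/SCI(0)]. By edgeR's quasi-likelihood test no member was called for stimulation, with or without injury, or for pimozide, although the pipeline of the study's methods called Egr1 for stimulation in intact rats. The study itself also reported Egr1 as decreased there. Nr4a1, Fosb, Egr2 and Arc were called in no contrast by the quasi-likelihood test on all rats.

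**Figure D1:**
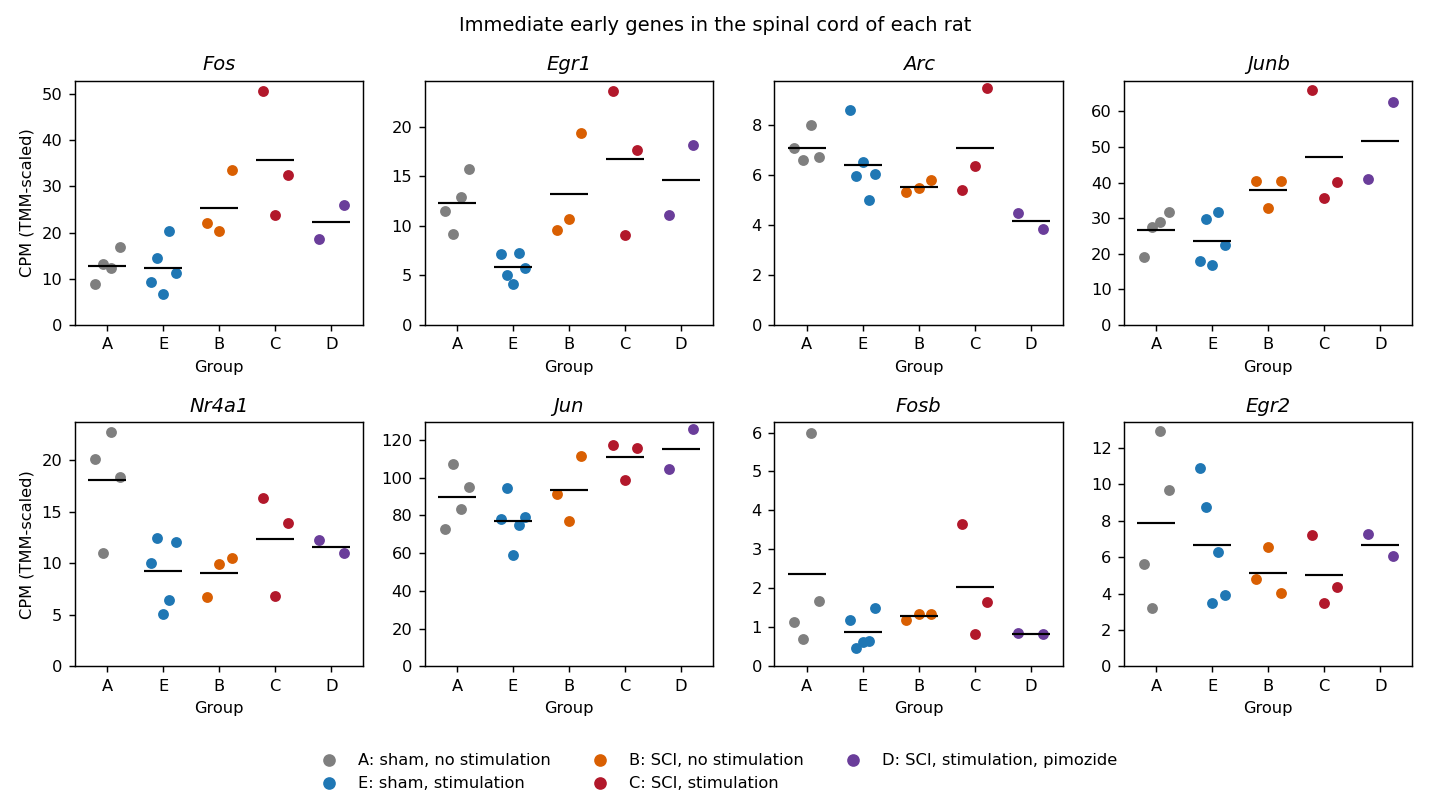
Level of each gene in every rat, in TMM-scaled CPM on linear axes that start at 0, by group (A and E intact, B, C and D injured). Each point is 1 rat and each line is the group mean. Every Junb point of the injured groups is above every intact one, whereas Egr1 is lowest in group E.

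Fos was measured at 8.75, 13.1, 12.3 and 16.8 CPM in the rats of group A (rats 70, 82, 83 and 84) and at 9.35, 14.5, 6.72, 20.3 and 11.2 CPM in those of group E (rats 69, 85, 86, 87 and 88). After injury it was at 22.02, 20.4 and 33.5 CPM in group B (rats 91, 94 and 95), at 50.7, 23.8 and 32.6 CPM in group C (rats 89, 90 and 93) and at 18.6 and 26.0 CPM in group D (rats 75 and 76). The means were 12.7 ± 3.29 in A (n = 4), 12.4 ± 5.23 in E (n = 5), 25.3 ± 7.15 in B (n = 3), 35.7 ± 13.7 in C (n = 3) and 22.3 ± 5.22 in D (n = 2). All rats of B and C were above all of A and E, and in the order C, B, D, A, E only D and A were neighbours whose ranges did not overlap. The rise was 1.53 ± 0.30 on the log2 scale in ±SCI(st), a 2.89-fold change (edgeR adjusted p = 0.0013), and 1.48 ± 0.32 in ±st/SCI(0), a 2.79-fold change (edgeR adjusted p = 0.0034). Injury without stimulation, ±SCI(0), gave 0.99 ± 0.32, which missed the adjusted p (edgeR adjusted p = 0.056, unadjusted p = 0.0072) and, narrowly, the fold limit. Both calls held with any single rat of their groups left out, at 1.19 to 1.77 in ±SCI(st) and 1.14 to 1.70 in ±st/SCI(0), with the lowest value of each without rat 89. Fos passed in ±SCI(0) with scaling by total counts (1.04, edgeR adjusted p = 0.04) and with the pipeline of the study's methods, which changes the test, the scaling and the rats fitted together (1.05, edgeR adjusted p = 1.5e-05).

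Junb, an AP-1 subunit that pairs with Fos proteins, separated injured from intact rats completely. In group A it was at 19.1, 27.5, 28.8 and 31.8 CPM and in group E at 17.9, 29.7, 16.7, 31.6 and 22.3 CPM. In group B it was at 40.4, 32.9 and 40.5 CPM, in group C at 66.1, 35.7 and 40.1 CPM, and in group D at 40.9 and 62.7 CPM. The lowest injured rat (32.9) was thus just above the highest intact rat (31.8), and Junb was the 1 member of 8 whose 8 injured and 9 intact rats did not overlap, a split that 11.2% of all genes also showed. Junb rose by 1.00 ± 0.23 in ±SCI(st) (edgeR adjusted p = 0.0045), barely past the fold limit, and by 0.82 ± 0.25 in ±st/SCI(0) (edgeR adjusted p = 0.026), which did not reach it. In ±SCI(0) its log2(FC) was 0.50 ± 0.25 (edgeR adjusted p = 0.2). The call in ±SCI(st) rested on rat 89 of group C, without which it was 0.69 (edgeR adjusted p = 0.06), and was also lost, at 0.90 to 0.98, without rat 69, 86 or 88 of group E. It was lost too with a term for the series of rat numbers, 69 to 76 or 82 to 95 (0.91), and in rats 82 to 95 alone (0.92). In ±st/SCI(0) the log2(FC) of Junb was 0.50 without rat 89. Its edgeR adjusted p there reached 0.23 with 1 rat left out.

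Jun, the partner of Fos in the classic AP-1 dimer, moved little. It was at 72.9, 107, 83.5 and 95.02 CPM in A, at 78.2, 94.7, 58.8, 74.6 and 78.9 CPM in E, and at 91.6, 76.9 and 112 CPM in B. In C it was at 118, 98.7 and 116 CPM and in D at 105 and 126 CPM. The ranges of A, B and E overlapped, and C lay above E throughout. Its log2(FC) in ±SCI(st) was 0.52 ± 0.15, a 1.44-fold change (edgeR adjusted p = 0.014) that did not reach the fold limit, and in ±SCI(0) it was 0.06 ± 0.16 (edgeR adjusted p = 0.84). With 1 rat left out, the edgeR adjusted p of Jun in ±SCI(st) ran from 0.007 to 0.069, so that pass was not always kept.

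Fosb, which encodes FosB and, by splicing, the stable ΔFosB that builds up with repeated stimulation, was at the edge of detection, with 6 to 63 counts per rat. Group A had 1.15, 0.71, 5.98 and 1.68 CPM and group E had 1.19, 0.47, 0.63, 0.66 and 1.49 CPM. Groups B (1.19, 1.35 and 1.35), C (3.65, 0.83 and 1.65) and D (0.86 and 0.82) were within the range of group A, whose upper end was set by rat 83 alone. No contrast of Fosb was called, and its largest log2(FC) in the 6 contrasts, -1.42 ± 0.56 in ±st(0) (edgeR adjusted p = 0.5), shrank to -0.39 without rat 83.

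Egr1, a zinc-finger factor induced by synaptic activity and by growth factors, was set apart by its low level in group E. It was at 11.5, 9.18, 12.9 and 15.7 CPM in A and at 7.14, 5.08, 4.13, 7.23 and 5.69 CPM in E. In the injured rats it was at 9.54, 10.7 and 19.4 CPM in B, at 23.6, 9.02 and 17.6 CPM in C and at 11.05 and 18.2 CPM in D. All 5 rats of E were below all other rats, and the other 4 groups overlapped, in the order C, D, B, A. The contrast ±SCI(st) gave 1.53 ± 0.30, a 2.88-fold difference (edgeR adjusted p = 0.0013), which held with each rat left out (1.198 to 1.82). Against the other control group no such rise was seen, with 0.10 ± 0.31 in ±SCI(0) (edgeR adjusted p = 0.86) and 0.45 ± 0.30 in ±st/SCI(0) (edgeR adjusted p = 0.3). The means were 5.85 ± 1.34 in E (n = 5), 12.3 ± 2.73 in A (n = 4), 13.2 ± 5.37 in B (n = 3) and 16.8 ± 7.35 in C (n = 3).

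Egr2, best known for its role in the myelinating Schwann cell, did not follow Egr1. Its levels were 5.63, 3.22, 12.9 and 9.67 CPM in A, 10.9, 8.75, 3.50, 6.29 and 3.94 CPM in E, and 4.77, 6.54 and 4.04 CPM in B. In C they were 7.21, 3.50 and 4.34 CPM and in D 7.27 and 6.09 CPM. All groups overlapped with their neighbours in the order A, D, E, B, C, and its largest log2(FC) of the 6 contrasts in size was -0.64 ± 0.44 in ±st/SCI(0) (edgeR adjusted p = 0.31).

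Nr4a1, a nuclear receptor induced by cAMP and calcium, was highest in group A, which had sham injury and no stimulation. It was at 20.1, 10.98, 22.8 and 18.4 CPM in A, at 10.04, 12.4, 5.04, 6.48 and 12.1 CPM in E, and at 6.70, 9.91 and 10.5 CPM in B. In C it was at 16.3, 6.81 and 13.9 CPM and in D at 12.3 and 10.99 CPM. Of the rats of A, 3 were above all other rats of the series and rat 82 was not. The log2(FC) was -0.995 ± 0.33 in ±SCI(0) (edgeR adjusted p = 0.06, unadjusted p = 0.0082). It was -0.97 ± 0.28 in ±st(0) (edgeR adjusted p = 0.4, unadjusted p = 0.0032). Both missed the adjusted p and, narrowly, the fold limit. Without rat 82 the value in ±SCI(0) was -1.18 and was called (edgeR adjusted p = 0.034). At -0.997 to -0.94 it passed only the adjusted p with DESeq2 (0.024), edgeR's exact test (0.031), no filter (0.042), the contrast's own groups alone (0.012) and the study's pipeline (0.0011). With the other settings on scaling, filter, dispersions and number series it passed neither limit (edgeR adjusted p 0.06 to 0.12).

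Arc, whose RNA travels to active synapses, stayed within 3.82 to 9.46 CPM in all rats. It was at 7.08, 6.59, 7.98 and 6.71 CPM in A, at 8.59, 5.93, 6.51, 4.98 and 6.04 CPM in E and at 5.32, 5.48 and 5.78 CPM in B. In C it was at 5.39, 6.35 and 9.46 CPM and in D at 4.49 and 3.82 CPM. Both pimozide rats were below all others. The contrast ±pim(st/SCI) gave -0.76 ± 0.24, a 0.590-fold change that did not pass (edgeR adjusted p = 0.3, unadjusted p = 0.0063). In that contrast the log2(FC) of Arc was -0.50 without rat 93 and -0.92 without rat 89. With a term for the series of rat numbers Arc was at -1.06 and did not pass either. In the other 5 contrasts of the study its log2(FC) lay between -0.36 in ±SCI(0) and 0.36 in ±st(SCI).

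The counts of members in the contrasts of injury, from the quasi-likelihood test, are read against those of all genes. In ±SCI(st), 3 of 8 were called against 8.31% of all genes, 4 had an unadjusted p under 0.05 against 41%, and 4 (Fos, Egr1, Junb and Jun) did not overlap between the groups against 27.1%. Their median log2(FC) was 0.76, with 7 of 8 higher, against -0.02 for all genes. In ±st/SCI(0), 1 of 8 was called against 7.13%, 2 had an unadjusted p under 0.05 against 37.1%, and 2 (Fos and Junb) did not overlap against 28.9%, with a median of 0.15. In ±SCI(0), 0 of 8 were called against 5.3%, 2 had an unadjusted p under 0.05 against 28.3%, and 4 did not overlap against 32.6%, namely Fos and Junb, higher in injured rats, and Arc and Nr4a1, lower. The median there was -0.15, with 4 genes higher and 4 lower.

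An average of both injury effects, ((B - A) + (C - E)) / 2, was added after the data were seen, because it uses 15 rats for 1 value. Fos was called in it, at 1.26 ± 0.22 or 2.39-fold (95% confidence interval 0.80 to 1.72 on the log2 scale, edgeR adjusted p = 0.00032), and remained so without any one rat (1.09 to 1.38). Egr1 (0.81 ± 0.22, edgeR adjusted p = 0.0071), Junb (0.75 ± 0.17, edgeR adjusted p = 0.0026) and Jun (0.29 ± 0.11, edgeR adjusted p = 0.041) passed the adjusted p but not the fold limit. Jun no longer passed with a term for the series of rat numbers (edgeR adjusted p = 0.089) or in rats 82 to 95 alone (edgeR adjusted p = 0.09). With 1 rat left out its edgeR adjusted p reached 0.14. The average of Egr1 joins unlike values, 0.10 in ±SCI(0) and 1.53 in ±SCI(st), where group E was low. Thus 1 of 8 was called against 7.3% of all genes, and 4 had an unadjusted p under 0.05 against 48.2%. Nr4a1 (-0.28 ± 0.23), Egr2 (-0.51 ± 0.30), Arc (-0.11 ± 0.14) and Fosb (0.18 ± 0.43) did not pass.

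**Figure D2:**
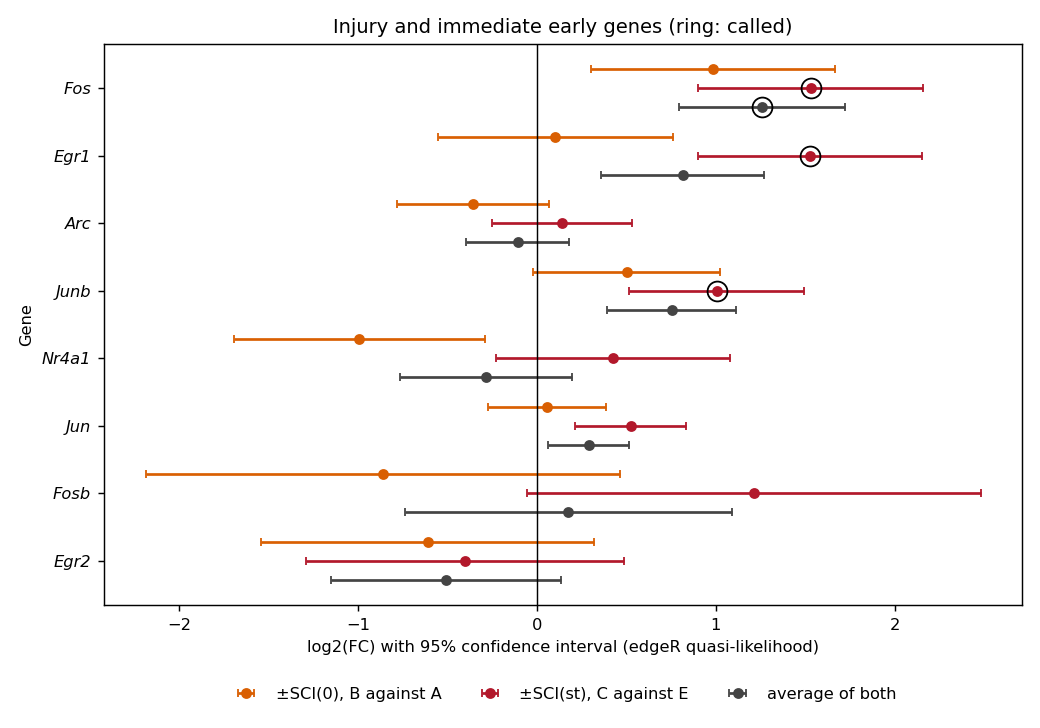
Log2(FC) with its 95% confidence interval (horizontal axis) of each gene (vertical axis) for injury without stimulation, injury with stimulation and the average of both, from edgeR. Rings mark called values, which are Fos, Egr1 and Junb with stimulation and Fos in the average.

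Markers of neutrophils and platelets were higher in all rats of C than in all rats of E. Their names came through lists of genes that the study selected on these rats, so their differences are not independent evidence. The 6 neutrophil genes summed to 74.0 to 122 CPM in C, 6.38 to 72.1 in E, 5.52 to 68.0 in A, 16.0 to 21.0 in B and 19.6 to 29.7 in D. The 6 red cell genes summed to 428 to 1245 CPM in C and 184 to 457 in E, and the 2 platelet genes to 8.77 to 13.6 and 3.22 to 5.19. Rat 89, the highest of group C in all members but Arc, had 101 CPM of neutrophil genes, between those of the other rats of C, and the lowest red cell sum of that group. Junb and Fos were also above the rats of group A in all rats of B, where neutrophil genes were within the range of A. The part of blood cells in the levels of the 8 genes was not tested.

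Whether levels of these genes differed at the end of 2 h of NRM stimulation is the question of ±st(SCI) and ±st(0). The quasi-likelihood test called none in either. The cord was sampled only at that time, so an earlier rise that had already passed would not be seen. In injured rats, ±st(SCI), all 8 genes overlapped between B and C. Their log2(FC) was 0.50 ± 0.33 for Fos (95% confidence interval -0.21 to 1.199), 0.32 ± 0.26 for Junb (-0.23 to 0.87), 0.35 ± 0.33 for Egr1 (-0.34 to 1.04), 0.45 ± 0.35 for Nr4a1 (-0.29 to 1.201) and 0.36 ± 0.21 for Arc (-0.09 to 0.81). It was 0.25 ± 0.17 for Jun (-0.10 to 0.60), 0.66 ± 0.67 for Fosb (-0.75 to 2.07) and -0.03 ± 0.48 for Egr2 (-1.035 to 0.98). The intervals of Fos, Egr1, Nr4a1 and Fosb thus hold both no change and a doubling, and 3 rats per group did not set these apart. Of the 8 genes 7 had a positive value against 51% of all genes, 0 had an unadjusted p under 0.05 against 3.08% of all genes, and 0 did not overlap against 6.15%. The number called was 0 of 8 and 0% of all genes by edgeR's quasi-likelihood test, with 476 genes at an unadjusted p under 0.05, and 0 genes by DESeq2 and by the exact test with TMM factors, but 33 genes, none of them among the 8, by the pipeline of the study's methods as re-run here. The study itself reported more genes for ±st(SCI), also without any of the 8. Without rat 89, the log2(FC) of Fos was 0.16, of Egr1 0.02, of Junb -0.00049, of Nr4a1 0.20, of Fosb -0.06 and of Egr2 -0.38, all lower than with it, whereas that of Arc was higher, at 0.52. Neutrophil genes summed to 16.0 to 21.0 CPM in B and 74.0 to 122 in C. Red cell genes summed to 203 to 297 CPM in B and 428 to 1245 in C. Platelet genes summed to 4.33 to 5.01 CPM in B and 8.77 to 13.6 in C. What part blood cells have in ±st(SCI) was not tested.

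In intact rats, ±st(0), all 8 values were below 0, whereas 52.1% of all genes were above it. Egr1 was at -1.08 ± 0.28 (95% confidence interval -1.67 to -0.48, unadjusted p = 0.0015, edgeR adjusted p = 0.31), and no rat of E reached the lowest rat of A. Nr4a1 (-0.97 ± 0.28) and Fosb (-1.42 ± 0.56) also had an unadjusted p under 0.05, whereas Fos (-0.05 ± 0.30), Junb (-0.19 ± 0.22), Arc (-0.14 ± 0.17), Jun (-0.22 ± 0.14) and Egr2 (-0.23 ± 0.37) had not. In all, 0 of 8 were called against 0% of all genes by edgeR's quasi-likelihood test, 3 had an unadjusted p under 0.05 against 8.39% (1297 genes), and 1 did not overlap against 2.46%. DESeq2 and the exact test with TMM factors each called 15 genes, none of the 8, and the pipeline of the study's methods called 25, among them Egr1 (-1.04, edgeR adjusted p = 0.00097). The study itself reported somewhat more genes for ±st(0) than this re-run, with Egr1 among those decreased.

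The effects of stimulation in injured and intact rats were compared directly as (C - B) - (E - A). The difference was 1.42 ± 0.43 for Egr1 (unadjusted p = 0.0044), 1.42 ± 0.45 for Nr4a1 (0.006), 2.08 ± 0.87 for Fosb (0.029) and 0.47 ± 0.22 for Jun (0.045), each with an edgeR adjusted p of 1. Without rat 83 of group A the difference of Fosb was 1.06. It was 0.55 ± 0.44 for Fos, 0.50 ± 0.34 for Junb, 0.50 ± 0.27 for Arc and 0.21 ± 0.61 for Egr2. All 8 were positive against 50.3% of all genes, and 4 had an unadjusted p under 0.05 against 4.11% of all genes, but 0 of 8 and 0% of all genes passed in edgeR or DESeq2. Averaged over injured and intact rats, stimulation gave 0 calls among the 8 and 0% of all genes in both tools, with 0 of 8 at an unadjusted p under 0.05 against 6.29% (972 genes). Genes of 1 rat are measured in the same library, so that the 8 signs are not 8 independent observations.

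**Figure D3:**
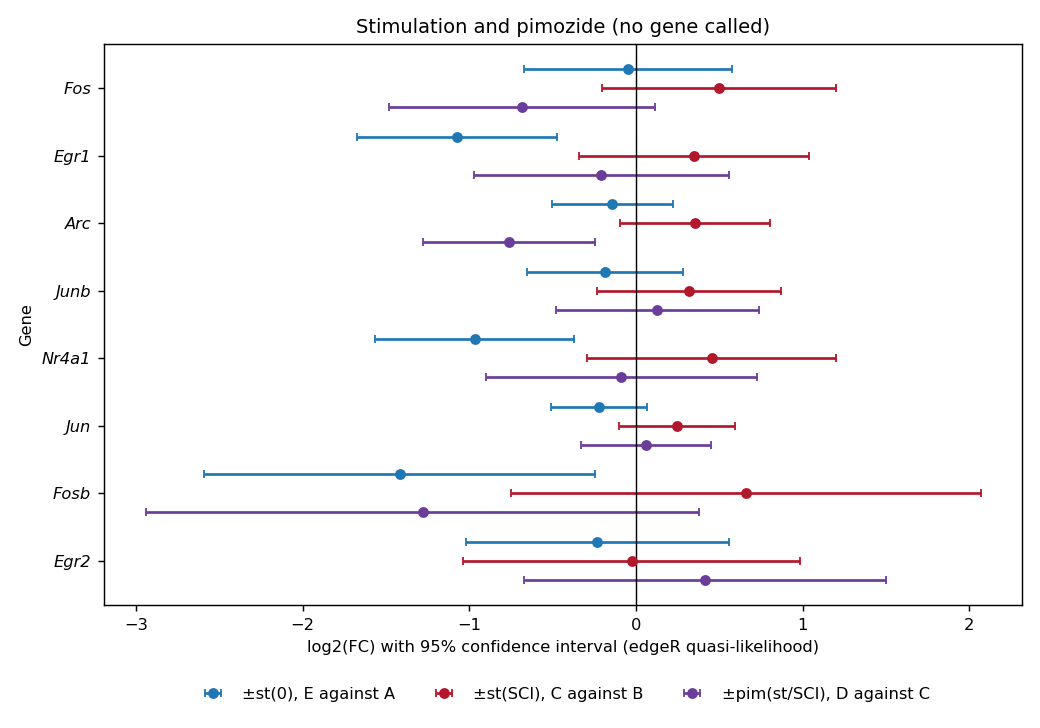
Log2(FC) with its 95% confidence interval (horizontal axis) of each gene (vertical axis) for stimulation in intact rats, stimulation in injured rats and pimozide in injured, stimulated rats, from edgeR. Values for intact rats are all below 0 and those of Egr1, Nr4a1 and Fosb have intervals below 0, while all intervals for stimulation in injured rats include 0. For pimozide, the interval of Arc alone lies below 0.

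Pimozide, ±pim(st/SCI), was compared in 2 rats of D against 3 of C. Apart from Arc, no gene had an unadjusted p under 0.05, with -0.68 ± 0.38 for Fos (95% confidence interval -1.48 to 0.11), -1.28 ± 0.79 for Fosb, -0.21 ± 0.36 for Egr1, -0.09 ± 0.39 for Nr4a1, 0.06 ± 0.18 for Jun, 0.13 ± 0.29 for Junb and 0.41 ± 0.51 for Egr2. Without rat 89 of group C, Fos was at -0.34 and Fosb at -0.57. Thus 0 of 8 were called against 0.0259% of all genes (4 genes), 1 had an unadjusted p under 0.05 against 8.86%, and 1 did not overlap against 18%. DESeq2 called 32 genes and the pipeline of the study's methods 74, none of the 8 among them. Both D rats carry numbers of the lower series (69 to 76) and all C rats of the higher one (82 to 95). With a term for the series, Fos was at -0.11 and Junb at 0.68. Neutrophil genes summed to 19.6 to 29.7 CPM in D and 74.0 to 122 in C. Red cell genes summed to 174 to 254 CPM in D and 428 to 1245 in C. Platelet genes summed to 4.70 to 5.91 CPM in D and 8.77 to 13.6 in C. What part blood cells have in these values was not tested.

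Variation between rats was then compared among the 8 genes. The mean of their centered log2(CPM + 0.1) ran from -0.86 in rat 86 of E to 0.78 in rat 89 of C, and rat 83 of A (0.53) was second. Across the 9 intact rats, Fos and Junb had a Pearson r of 0.94 (exact permutation p = 3.3e-05, adjusted p = 0.00093 over 28 pairs) and a Spearman rho of 0.95 (exact permutation p = 0.00035, adjusted p = 0.0099). Without the rats farthest from the median in Fos, 86 and 87, r was 0.95. This was the only pair of 28 that passed by r. Within the intact groups, with group means removed, r of Fos and Junb was also 0.95. In the 8 injured rats, r of Fos and Junb was 0.62 (exact permutation p = 0.099, adjusted p = 0.29) and rho was 0.43 (exact permutation p = 0.3, adjusted p = 0.47), and r was 0.30 without rats 89 and 95 and 0.87 with group means removed. Fos and Egr1 had an r of 0.86 there (exact permutation p = 0.0051, adjusted p = 0.14) and a rho of 0.74 (exact permutation p = 0.046, adjusted p = 0.21), with r at 0.71 without rats 89 and 95 and at 0.96 with group means removed. No pair passed in injured rats (smallest adjusted p = 0.14), and r was positive in 25 of 28 pairs of intact and 23 of 28 of injured rats, with medians of 0.43 and 0.50. Egr1 and Nr4a1 had an r of 0.78 in intact rats (exact permutation p = 0.014, adjusted p = 0.2) and a rho of 0.67 (exact permutation p = 0.059, adjusted p = 0.43), with r at 0.64 without rats 83 and 84 and at 0.41 with group means removed. In injured rats their r was 0.79 (exact permutation p = 0.019, adjusted p = 0.17) and rho was 0.76 (exact permutation p = 0.037, adjusted p = 0.21), with r at 0.58 without rats 89 and 90 and at 0.79 with group means removed. Egr1 and Egr2, whose promoter elements are printed side by side above, had an r of 0.45 in intact rats (exact permutation p = 0.22, adjusted p = 0.42) with a rho of 0.40 (exact permutation p = 0.29, adjusted p = 0.48), and r was 0.04 without rats 83 and 84 and 0.71 with group means removed. In injured rats their r was 0.21 (exact permutation p = 0.58, adjusted p = 0.74) with a rho of 0.29 (exact permutation p = 0.5, adjusted p = 0.67), and r was -0.50 without rats 89 and 90 and 0.27 with group means removed.

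**Figure D4:**
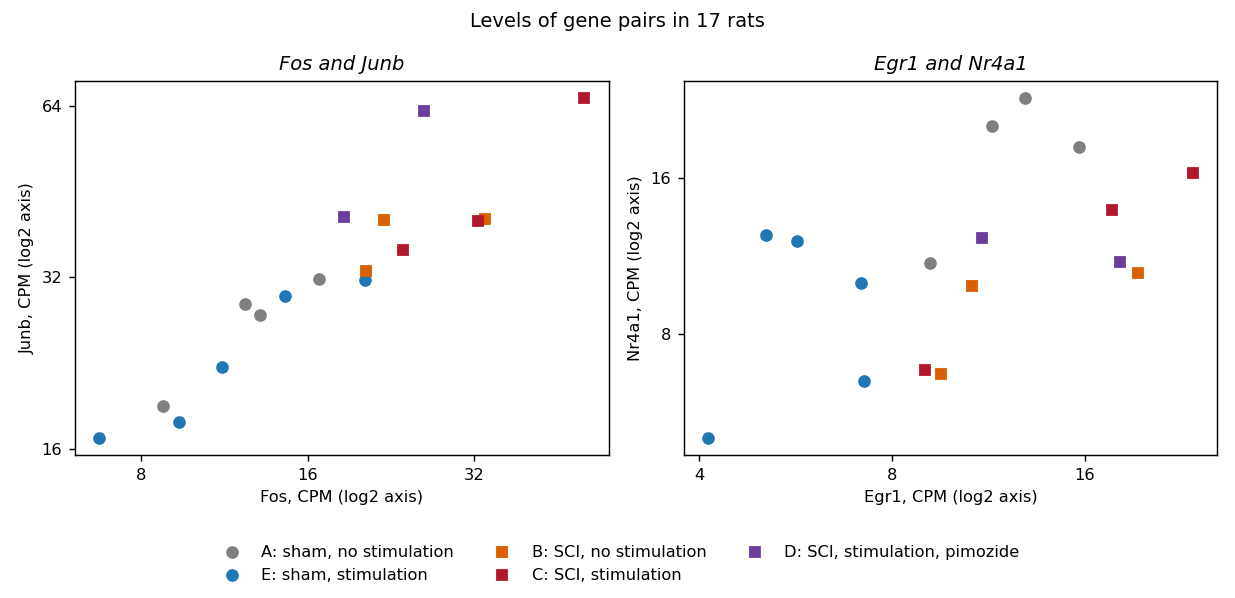
Levels of Fos against Junb and of Egr1 against Nr4a1 in each of 17 rats, in CPM on log2 axes, with circles for intact and squares for injured rats. Fos and Junb rise together in intact rats, where r is 0.94, and all injured rats lie above the intact ones in Junb, which is not so for Fos. The rats of E have the lowest Egr1 levels, and 3 rats of A have the highest Nr4a1 levels.

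Among the other genes kept, those nearest in pattern to the mean of the 8 genes over the 17 rats were ENSRNOG00000054259 (r = 0.92, and 0.89 with group means removed) and ENSRNOG00000007152 (r = 0.88, and 0.86). They were picked as the highest values among all genes and carry no symbol in the sources used here. Both were lowest in group E, at 11.8 and 55.3 CPM, against 15.5 and 80.5 in A. The mean of the 8 genes was itself below that of the series in every rat of E. A low level in E thus follows in part from how these genes were picked.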

How the data were processed

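RNA from 17 rats was measured, with 1 library per rat. Per the labels and the study's methods, the authors made stranded, rRNA-depleted libraries, trimmed and aligned single-end reads and counted them per Ensembl gene with STAR. The submitters' processing notes list bcl2fastq 1.8.4, Trim Galore 0.4.1 and STAR 2.5.0a. They name Rnor_6.0, whereas the methods name Rnor_5.0, so no coordinates of the counted genes are given. The authors deposited raw counts of reads per gene, not normalized; the strand column used is not given in the sources used here, so that overlapping antisense reads may be included. Totals of 9852873 to 14137717 counts put 1 CPM at some 10 counts.

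Counts were fitted in R 4.3.3 with edgeR 4.0.16 (filterByExpr, TMM, glmQLFit with 1 coefficient per group over all rats, glmQLFTest). The Benjamini-Hochberg method was applied over 15460 genes, with calls at FDR under 0.05 with absolute log2(FC) above 1. One alternative used DESeq2 1.42.0. Python 3.11.15 with scipy 1.17.1 gave 2-sided exact permutation tests of correlations and matplotlib 3.10.9 the plots. The edgeR step was run on simulated data with planted changes larger than most of those reported here. How well it recovers smaller changes was not tested. Groups follow the title letters, and nothing beyond the rat number separates the samples, so each is 1 animal. The 8 genes, whose identifiers were given by name, and all lists were chosen with earlier results of these data known. The genes named are these 8, plus the genes most like their mean. Alternatives were edgeR's exact test, the pipeline of the study's methods (exact test, total counts, each pair of groups alone), DESeq2, total-count and RLE scaling, no filter, a filter of 1 CPM in 3 rats, the contrast's own groups alone, dispersions estimated robustly, the number series as a term, no fold limit, and each rat left out. The average of the injury effects and a fit of rats 82 to 95 alone were chosen after seeing the data. Promoters are from RefSeq (GRCr8).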

Additional observations from a re-analysis of the deposited data

How the results depend on the processing

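Of 1432 values of the 72 gene results under the alternatives, 1376 kept their direction and their side of the threshold, 46 changed sign, 6 lost and 4 gained a call. The calls of Fos in ±SCI(st), in ±st/SCI(0) and in the average of injury effects and of Egr1 in ±SCI(st) held in every alternative run, but that of Junb in ±SCI(st) was lost with a term for the number series (0.91) and in rats 82 to 95 alone (0.92). Members called were 2 in ±st/SCI(0) and 4 in the average of injury effects with no fold limit, 1 in ±SCI(0) with total counts and with the pipeline of the methods (Fos, 1.04 and 1.05), and 1 in ±st(0) with that pipeline (Egr1, -1.04). With 1 rat left out they were 0 to 1 in ±SCI(0) and 2 to 3 in ±SCI(st). Arc in ±st/SCI(0) turned from -0.0027 to 0.043 (total counts), 0.0019 (RLE), 0.012 (no filter), 0.067 (number series), 0.043 (pipeline of the methods) and 0.0046 (DESeq2). In rats 82 to 95 alone, Jun turned to -0.030 in ±SCI(0) and to -0.032 in stimulation averaged over injury. With the number series as a term, pimozide gave -0.11 for Fos and 0.68 for Junb. Values that changed sign with 1 rat left out had these ranges (log2). In ±SCI(0) Egr1 -0.28 to 0.29, Jun -0.091 to 0.18, Fosb -1.18 to 0.16. In ±st(0) Fos -0.29 to 0.11, Egr2 -0.50 to 0.13. In ±st/SCI(0) Arc -0.26 to 0.16, Fosb -0.92 to 0.83. In stimulation averaged over injury Arc -0.021 to 0.19, Junb -0.093 to 0.15, Jun -0.048 to 0.087, Fosb -0.74 to 0.14, Egr2 -0.31 to 0.055. In the difference of stimulation effects Egr2 -0.15 to 0.48. In injury averaged over stimulation Fosb -0.18 to 0.69. In ±st(SCI) Junb -0.00049 to 0.48, Fosb -0.056 to 1.03, Egr2 -0.38 to 0.19. In ±pim(st/SCI) Egr1 -0.60 to 0.12, Junb -0.21 to 0.45, Nr4a1 -0.38 to 0.17, Jun -0.079 to 0.18. In ±SCI(st) Arc -0.12 to 0.30. None of these values was called. Over all genes with all rats, calls in ±pim(st/SCI) (4) ran from 1 to 74, in ±st(SCI) (0) to 33 and in ±st(0) (0) to 25. Without the fold limit they were 1912 for 820 in ±SCI(0), 3380 for 1103 in ±st/SCI(0), 4429 for 1285 in ±SCI(st) and 6025 for 1129 in the average of injury effects. Without rat 89 they fell to 664 in ±st/SCI(0) and 812 in ±SCI(st), and with other rats left out rose to 49 in ±st(0) and 36 in ±pim(st/SCI). The causes were not tested. No paired analysis was possible because each rat number occurs once. Groups of 2 to 5 rats, and for Fosb 6 to 63 counts, limit the precision.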
